A study of Mus musculus with 12 samples.

Results

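The Hox genes encode homeodomain transcription factors that give cells their position along the head-to-tail axis of the embryo. In the mouse they lie in 4 clusters, Hoxa, Hoxb, Hoxc and Hoxd, in which neighbouring genes point the same way. Genes at the same place in different clusters form a paralogous group, numbered from 1 at the anterior (3′) end to 13 at the posterior (5′) end. Anterior genes are known to switch on earlier and nearer the head than posterior genes, an order called collinearity. In mouse embryonic stem cells most Hox promoters are known to be held down by Polycomb complexes, which MLL (trithorax) complexes oppose, and retinoic acid, Wnt signals and the Cdx factors are known to switch the clusters on. The members described here were all genes of the count table whose symbol is Hoxa, Hoxb, Hoxc or Hoxd followed by a number. These were 39 of the 55487 genes listed, with 11 in Hoxa, 10 in Hoxb, 9 in Hoxc and 9 in Hoxd.

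Polyadenylated RNA came from clones of the mouse embryonic stem cell line E14 Tg2a. The 4 groups were EpiLC KO, EpiLC WT, naive KO and naive WT, with 3 libraries each, and the replicate numbers stand for clones that the series text calls independent. KO clones carried a Pcbp1 knockout (Pcbp1 encodes an RNA-binding protein), and WT clones are called Scr controls in the series text and WT in the sample labels. Naive cells grew without serum in 2i-LIF-N2B27 with the MEK inhibitor PD0325901 and the GSK3 inhibitor CHIR99021; EpiLC libraries (epiblast-like cells, a culture model of the epiblast just after implantation) came after 48 h in N2B27 with bFGF, activin A and KOSR on fibronectin. How the knockout was made is not given in the sources used here.

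Each library held between 27146744 and 42204511 counted reads, of which the 39 Hox genes took 134 to 2301. Pcbp1 gave 250, 302 and 265 CPM (the reads of a gene after TMM scaling for library depth) in EpiLC KO, against 692, 512 and 591 CPM in EpiLC WT. It gave 295, 302 and 303 CPM in naive KO, against 475, 418 and 474 CPM in naive WT, so every KO library was lower than every WT library of its condition. Marker levels followed the culture labels. The summed level of 11 naive pluripotency genes (such as Klf4, Esrrb and Tfcp2l1) was 275 to 409 CPM in EpiLC KO, 244 to 789 CPM in EpiLC WT, 4728 to 5028 CPM in naive KO and 4981 to 5097 CPM in naive WT. The summed level of 8 formative genes (such as Fgf5, Otx2 and Dnmt3b) was 3625 to 3772 CPM in EpiLC KO, 3022 to 5204 CPM in EpiLC WT, 123 to 201 CPM in naive KO and 116 to 158 CPM in naive WT. EpiLC WT replicate 2 stood apart from the other EpiLC WT libraries, with the naive genes at 789.2 CPM against 244.5 and 245 CPM. Sums over the members and calls that change without it are given with and without it.

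RefSeq promoter windows (build GRCm38.p6) run from 250 bases before an annotated start of a gene to 50 after it, and 22 of the 39 members had at least 1. Of these, 3 are shown because they belong to members that moved differently: Hoxd13 and Hoxa7 were higher in KO than in WT EpiLCs, and Hoxb1 was the 1 tested member that was higher in EpiLCs than in naive cells in both genotypes. Each is written 5′ to 3′ on the strand of its gene, with every CpG dinucleotide (a C followed by a G, the dinucleotide that DNA methylation targets and that CpG islands are rich in) in capitals.
Hoxd13 (chr2:74667975-74668274, + strand): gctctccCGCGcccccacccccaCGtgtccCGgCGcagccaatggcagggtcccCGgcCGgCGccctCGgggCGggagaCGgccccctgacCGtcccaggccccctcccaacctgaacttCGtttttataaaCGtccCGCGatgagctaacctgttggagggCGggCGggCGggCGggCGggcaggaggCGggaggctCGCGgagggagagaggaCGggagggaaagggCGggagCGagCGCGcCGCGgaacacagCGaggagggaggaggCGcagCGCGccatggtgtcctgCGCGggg
Hoxa7 (chr6:52218524-52218823, - strand): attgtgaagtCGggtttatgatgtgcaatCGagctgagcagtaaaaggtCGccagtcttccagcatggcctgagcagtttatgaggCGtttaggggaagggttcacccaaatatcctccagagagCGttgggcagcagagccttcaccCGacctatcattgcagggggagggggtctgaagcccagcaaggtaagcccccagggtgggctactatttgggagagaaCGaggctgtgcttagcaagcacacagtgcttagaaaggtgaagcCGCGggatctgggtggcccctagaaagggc
Hoxb1 (chr11:96365508-96365807, + strand): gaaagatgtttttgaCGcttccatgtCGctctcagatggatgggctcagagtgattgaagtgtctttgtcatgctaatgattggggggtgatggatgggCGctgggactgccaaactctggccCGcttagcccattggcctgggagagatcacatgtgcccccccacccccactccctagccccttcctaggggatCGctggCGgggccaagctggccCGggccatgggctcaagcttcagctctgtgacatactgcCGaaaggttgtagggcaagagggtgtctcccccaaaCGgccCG
The Hoxd13 window held 37 CpGs, more than 94.4% of the 32851 windows in the table, whereas the Hoxa7 window held 9 and the Hoxb1 window 10. Over the 24 windows of the 22 members the number of CpGs ran from 4 to 45 with a median of 14.5, against a median of 7 over all windows. Hoxa13, with 45 CpGs, was the window richest in them. A window need not lie at the outer start of the counted gene. The Hoxa7 window lies inside the counted gene, which runs from 52214491 to 52221854 on the - strand. The last 30 bases were found in a transcript of the gene for 20 of the 24 windows. A search of both strands for TATAAA, the core of the TATA box, found it in 4 member windows and in 13.6% of all windows. In the Hoxd13 window it began 124 bases before the start, and as its match on the other strand overlaps it, both are 1 place. A search for TGATNNAT, a sequence bound by Pbx and Hox proteins together, found it in 4 member windows, among them 1 match in Hoxb1, 162 bases before the start, and in 8.85% of all windows. A match in a window describes its letters and does not show that a factor binds there.

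In naive cells the Hox reads came mainly from the posterior end of the Hoxc cluster. The summed level of all 39 genes was 64.5 ± 6.41 CPM in naive KO and 59.3 ± 7.86 CPM in naive WT (SD, n = 3 each). The Hoxc cluster held 69 ± 2.4% of these reads in naive KO and 65.1 ± 8% in naive WT. Paralogous groups 9 to 13 held 81.7 ± 1.9% in naive KO and 75.3 ± 2% in naive WT, groups 4 to 8 held 9.3 ± 0.5% in naive KO and 16.2 ± 2% in naive WT, and groups 1 to 3 held 9 ± 1.5% in naive KO and 8.4 ± 0.1% in naive WT. The Hoxd cluster was the lowest, with 1.4 ± 0.6% in naive KO and 5 ± 2.1% in naive WT. In bulk RNA, fewer cells that express a gene and less RNA per cell cannot be told apart.

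**Figure D1:**
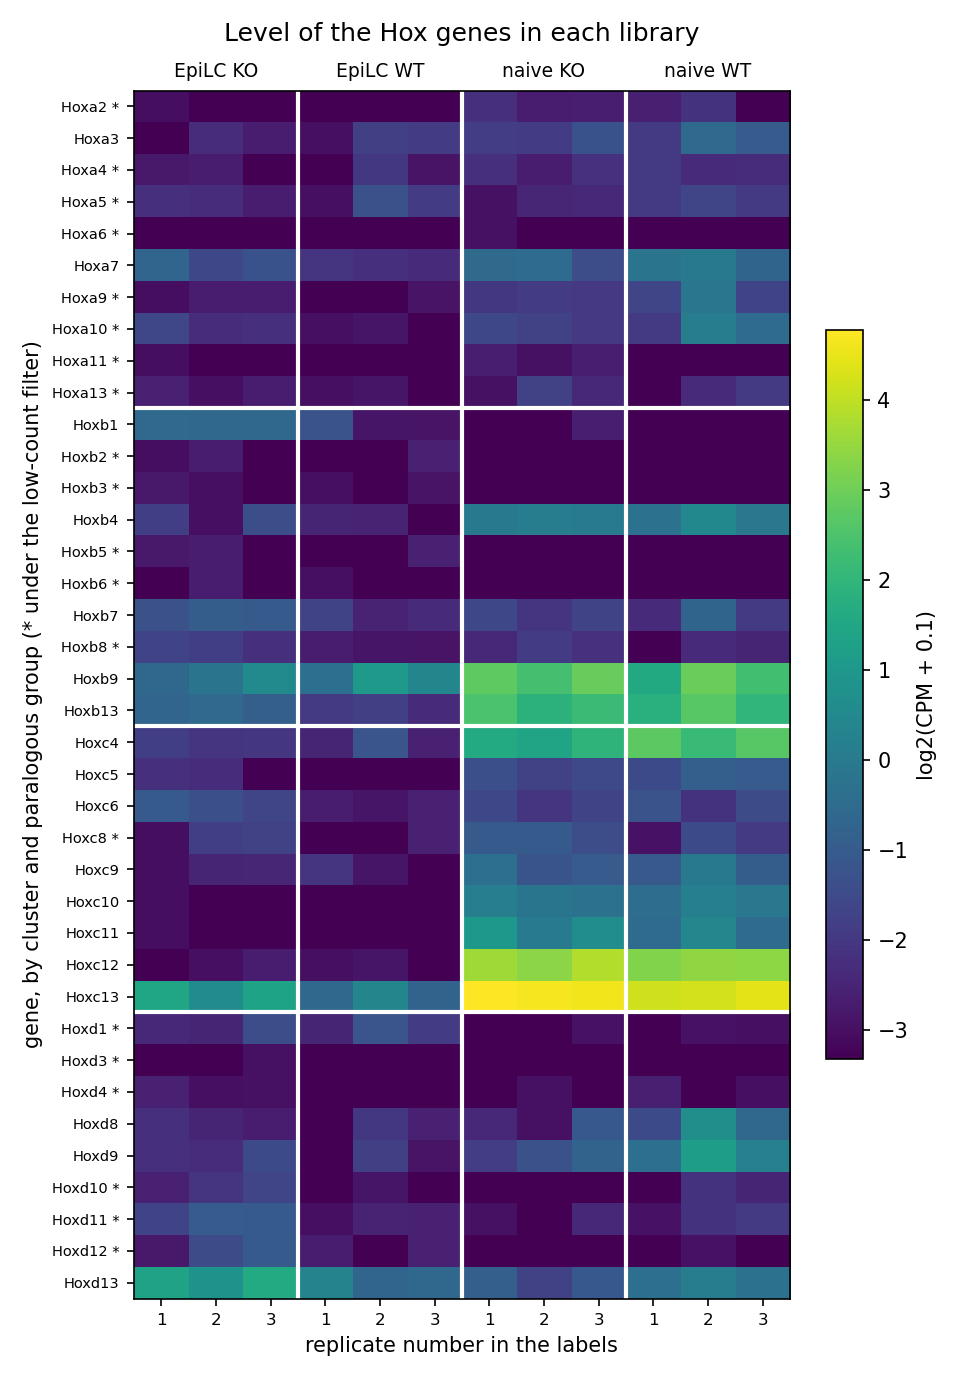
Level of 38 of the 39 Hox genes (rows, by cluster and paralogous group) in each of the 12 libraries (columns, by group and replicate), coloured by log2(CPM + 0.1). Hoxc13 and Hoxc12 are the brightest rows in the naive libraries, and Hoxd13 is bright in the EpiLC KO libraries.

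Hoxc13, known for its part in hair follicles and nails, had the highest level of all members. It gave 917, 908 and 781 reads in naive KO, against 572, 580 and 806 in naive WT (25.5 ± 1.62 and 19.4 ± 1.71 CPM). Its neighbour Hoxc12 gave 414, 368 and 461 reads in naive KO, against 290, 330 and 397 in naive WT (12.2 ± 1.96 and 10.1 ± 0.732 CPM). The naive KO and naive WT libraries overlapped for Hoxc12, and for Hoxc13 the lowest naive KO library was above the highest naive WT library in CPM but not in reads. Per kilobase of exon, Hoxc12 stood at 11.9 CPM per kb in naive KO and 9.83 in naive WT, and Hoxc13 at 10.4 in naive KO and 7.9 in naive WT. On that scale Hoxc12 was above 75.4% of the tested genes in naive KO and above 72.1% in naive WT.

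Other members above 1 CPM per kb in the naive groups included Hoxb9, Hoxb13 and Hoxc4. Hoxb9, a thoracic group 9 gene, gave 225, 184 and 240 reads in naive KO and 92, 236 and 185 in naive WT. Hoxb13, the most posterior Hoxb gene, known from the tail bud and prostate, gave 185, 128 and 145 reads in naive KO and 106, 195 and 148 in naive WT. For both genes the libraries of the naive groups overlapped. Hoxc4, a cervical gene at the anterior end of the Hoxc cluster, gave 100, 91 and 123 reads in naive KO and 205, 133 and 233 in naive WT, and here every naive KO library was below every naive WT library. Hoxc13, Hoxc12, Hoxb13, Hoxb9, Hoxd13, Hoxb1, Hoxc4 and Hoxc6 share no exon bases with another gene in the annotation.

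Within the Hoxc cluster the level did not follow position evenly. Hoxc11 gave 64, 32 and 48 reads in naive KO and 19, 39 and 23 in naive WT. Hoxc10, a gene of the lumbar spinal cord and hindlimb, gave 34, 28 and 23 reads in naive KO and 20, 32 and 32 in naive WT. Hoxc9, a thoracic motor neuron gene, gave 23, 12 and 13 reads in naive KO and 12, 27 and 16 in naive WT. Hoxc8, Hoxc6 and Hoxc5, between Hoxc9 and Hoxc4, had at most 15 reads in any naive library. Hoxc13 and Hoxc12 at one end and Hoxc4 at the other were each higher, per kilobase, than every gene between them in all 6 naive libraries.

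The remaining members were low. In Hoxa, Hoxa10 had at most 30 reads and Hoxa7 at most 27 in any library, and Hoxa6 had 1 read in all 12 libraries together. Hoxa2, Hoxa4, Hoxa5, Hoxa11 and Hoxa13 had 6 to 50 reads in all. In Hoxb, Hoxb2, Hoxb3, Hoxb5 and Hoxb6 had no read in any naive library and 3 to 6 reads in all, while Hoxb4, a gene of the cervical region and of blood progenitors, gave 29, 34 and 30 reads in naive KO and 23, 40 and 32 in naive WT. In Hoxd, Hoxd3 had 1 read in all, Hoxd4 had 9 and Hoxd1 had 37. Other genes share 62.8% of the exon length of Hoxd3, 52.9% of that of Hoxb3 and 52.3% of that of Hoxd4, and because reads in shared exons were left uncounted on either strand, the counts of these 3 cover only the rest. All 39 members had at least 1 read in some library. A filter on low counts kept 19 of the 39 for testing, those that reached about 0.295 CPM in at least 3 libraries; 9 of the 19 reached it in naive libraries only and 1, Hoxb1, in EpiLC libraries only, so for these 10 genes the filter itself selected a difference between the conditions.

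The first comparison asked how the clusters changed as naive cells became EpiLCs. The summed level of the 39 genes was 10.8 ± 1.57 CPM in EpiLC KO against 64.5 ± 6.41 CPM in naive KO, and 5.3 ± 1.56 CPM in EpiLC WT against 59.3 ± 7.86 CPM in naive WT. That left 16.8% of the naive level in KO cells and 8.93% in WT cells. The EpiLC WT libraries gave 4.35, 7.1 and 4.46 CPM, and without replicate 2 they averaged 4.4 CPM, 7.42% of the naive WT level. The Hoxc cluster was at 6.66% of its naive level in KO and 2.79% in WT, Hoxa at 22.7% in KO and 16.8% in WT, and Hoxb at 22.8% in KO and 17% in WT. The Hoxd cluster differed between the genotypes, at 398% of its naive level in KO cells and 38.3% in WT cells, although no test was made on these sums.

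**Figure D2:**
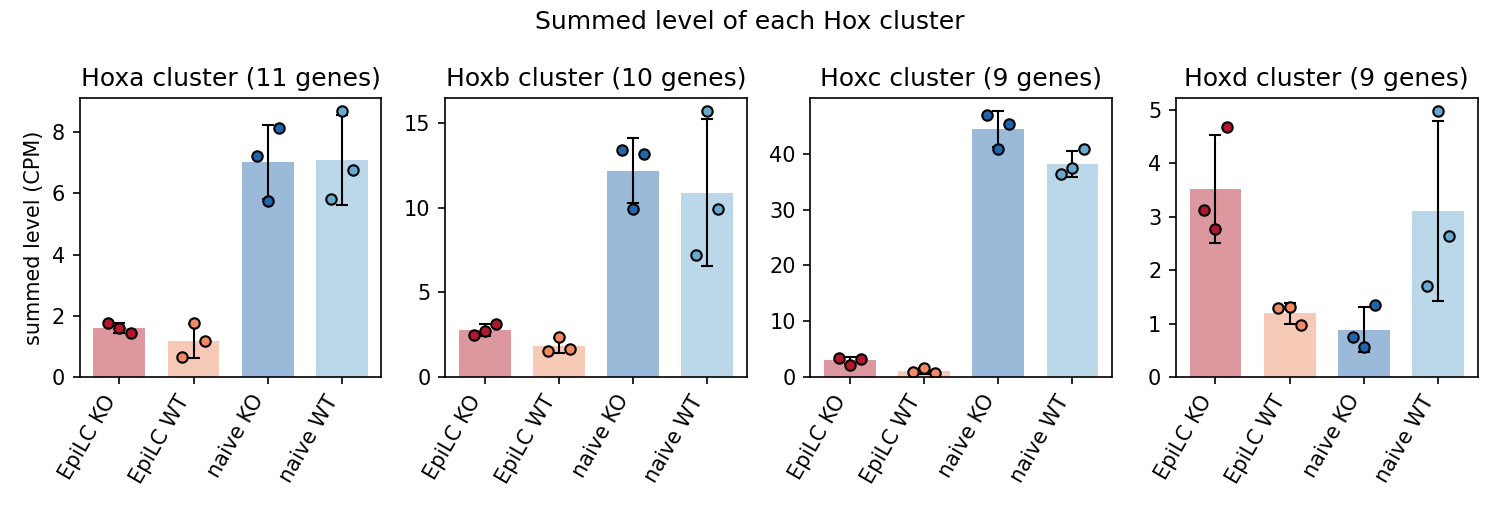
Summed level of the members of each cluster (CPM), with 1 point per library, bars for group means and error bars for the SD (n = 3). The Hoxc cluster is at 2.96 CPM in EpiLC KO and 1.07 CPM in EpiLC WT against 44.4 CPM in naive KO and 38.2 CPM in naive WT, while Hoxd is highest in EpiLC KO and naive WT.

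In WT cells 15 of the 19 tested members fell and 1 rose in EpiLCs (edgeR quasi-likelihood test, adjusted p under 0.05), where 26.3% of all tested genes were called lower and 26.4% higher. In KO cells 10 fell and 2 rose, where 28.1% of all tested genes were called lower and 27.1% higher. The members that fell in both genotypes included Hoxb4, Hoxb9, Hoxb13, Hoxc4, Hoxc9, Hoxc10, Hoxc11, Hoxc12 and Hoxc13. Without EpiLC WT replicate 2 the members called among these 19 were the same in both genotypes. As stated, the filter had selected 9 of the 19 for their naive reads, so the number that fell is a description of these members and is not set against the share of all genes.

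The Hoxc cluster gave the deepest falls. Hoxc12 had 0, 1 and 2 reads in EpiLC KO and 1, 1 and 0 in EpiLC WT. Over the summed reads its level was 475 times lower in EpiLC KO than in naive KO (95% interval 162 to 2304) and 478 times lower in EpiLC WT than in naive WT (132 to 3952), where the interval covers counting error only. Its neighbour Hoxc13 kept reads, with 116, 53 and 89 in EpiLC KO and 21, 32 and 15 in EpiLC WT, and fell by 3.54 ± 0.293 on the log2 scale in KO (SE, n = 3 per group, adjusted p = 8.52e-07). In WT it fell by 4.71 ± 0.325 (adjusted p = 2.22e-07). Hoxc13 thus kept 258 summed reads in EpiLC KO and 68 in EpiLC WT, where Hoxc12 kept 3 and 2. Hoxc11 and Hoxc10 each had 1 read in the EpiLC KO libraries together and 0 in EpiLC WT. Counted against 3 reads over the group, this made Hoxc11 at least 25.4-fold lower and Hoxc10 at least 26.3-fold lower in EpiLC WT than in naive WT. Hoxc5 was at least 11.6-fold lower in EpiLC WT, where it had 0 reads, whereas EpiLC KO gave 5, 4 and 0 reads. Hoxc4 had 8, 5 and 5 reads in EpiLC KO and 3, 9 and 2 in EpiLC WT, and fell by 4.30 ± 0.449 on the log2 scale in KO (adjusted p = 5.73e-06). In WT it fell by 5.18 ± 0.466 (adjusted p = 1.97e-06). Hoxc9 had 1, 3 and 3 reads in EpiLC KO and 5, 1 and 0 in EpiLC WT.

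In the Hoxb cluster, Hoxb4, Hoxb9 and Hoxb13 fell in both genotypes. Hoxb9 gave 24, 29 and 47 reads in EpiLC KO and 25, 53 and 36 in EpiLC WT, and fell by 2.87 ± 0.457 in KO (adjusted p = 0.000179) and by 2.02 ± 0.445 in WT (adjusted p = 0.00212). Hoxb13 gave 23, 22 and 16 reads in EpiLC KO and 6, 5 and 3 in EpiLC WT, and fell by 3.11 ± 0.317 in KO (adjusted p = 4.78e-06) and by 4.89 ± 0.374 in WT (adjusted p = 5.29e-07). Hoxb4 gave 8, 1 and 10 reads in EpiLC KO and 3, 2 and 0 in EpiLC WT. In all 3 of these genes each EpiLC library was below every naive library of its genotype.

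The 5 members that fell in WT cells and did not pass in KO cells were Hoxa7, Hoxc5, Hoxc6, Hoxd8 and Hoxd9. Hoxa7, a gene of the thoracic vertebrae, gave 5, 3 and 3 reads in EpiLC WT against 24, 27 and 19 in naive WT, and 23, 9 and 11 in EpiLC KO against 20, 22 and 9 in naive KO. Hoxc6, also thoracic, gave 2, 1 and 2 reads in EpiLC WT against 10, 4 and 10 in naive WT, and 17, 11 and 8 in EpiLC KO against 8, 5 and 7 in naive KO. Hoxd9 gave 0, 5 and 1 reads in EpiLC WT against 21, 68 and 40 in naive WT, and 5, 4 and 9 in EpiLC KO against 6, 11 and 16 in naive KO. Hoxd8 gave 0, 4 and 2 reads in EpiLC WT against 8, 47 and 21 in naive WT, and 5, 3 and 2 in EpiLC KO against 3, 1 and 12 in naive KO. Their log2 fold changes in KO ran from -1.65 for Hoxc5 to 0.62 for Hoxc6. A pass in one genotype and none in the other is no test of the difference, which the interaction below addresses. Hoxa3 and Hoxb7 passed in neither genotype; with the clone as a block, Hoxa3, at log2 -1.99 ± 0.844 in KO without the block, passed in KO (adjusted p = 0.0396).

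**Figure D3:**
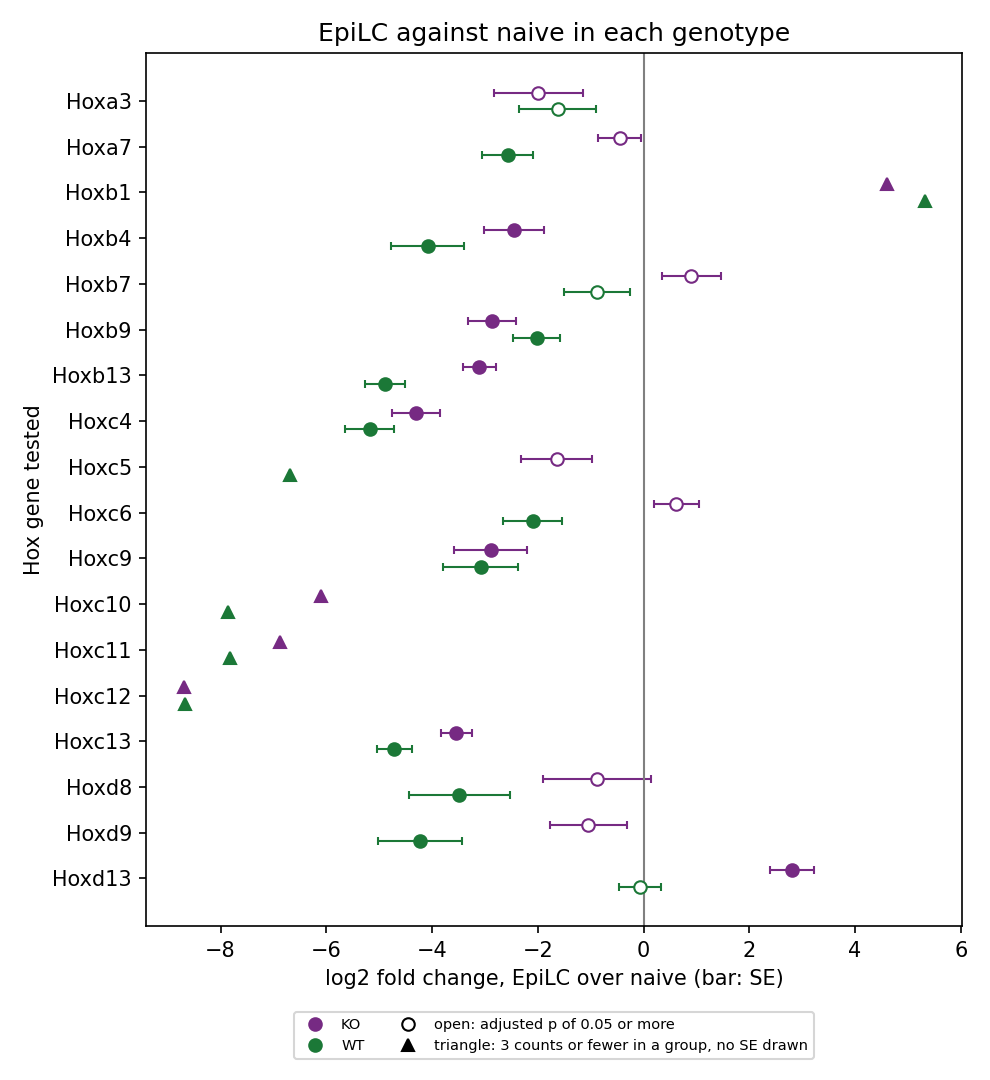
Log2 fold change of EpiLC over naive cells for 18 of the 19 tested Hox genes, in KO (purple) and WT (green), with SE bars and filled symbols for an adjusted p under 0.05; triangles mark genes with 3 reads or fewer in a group, whose fitted fold depends on the prior count. Hoxc12 lies lowest, at -8.70 in KO and -8.67 in WT, and Hoxd13 lies at 2.81 in KO and -0.06 in WT.

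Hoxb1 and Hoxd13 rose. Hoxb1, which gives rhombomere 4 of the hindbrain its identity, had 25, 21 and 20 reads in EpiLC KO against 0, 0 and 2 in naive KO, 28.8 times more (95% counting interval 7.67 to 243). It had 12, 1 and 1 reads in EpiLC WT against none in naive WT, at least 4.97-fold higher. The WT call rested on 1 library: without EpiLC WT replicate 1 the log2 fold change was 3.41 with an adjusted p of 0.116. Hoxd13, the most posterior Hoxd gene, which shapes digits and the genital tubercle, had 105, 64 and 107 reads in EpiLC KO against 15, 7 and 12 in naive KO, and rose by 2.81 ± 0.409 on the log2 scale (adjusted p = 8.82e-05). In WT cells it had 42, 14 and 17 reads in EpiLC WT against 21, 30 and 27 in naive WT, which overlap, and did not pass (log2 -0.06, adjusted p = 0.905).

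The next comparison asked what the knockout did within EpiLCs. The summed level of the 39 genes was 10.8 ± 1.57 CPM in EpiLC KO and 5.3 ± 1.56 CPM in EpiLC WT, 2.05 times as high. Every cluster was higher in the mean, by 1.34 times in Hoxa, 1.49 in Hoxb, 2.77 in Hoxc and 2.97 in Hoxd. Without EpiLC WT replicate 2 the ratio was 2.46 over all members, 1.77 in Hoxa, 1.74 in Hoxb, 3.8 in Hoxc and 3.13 in Hoxd. Of the 19 tested members, 5 were higher and 0 were lower in EpiLC KO, where 7.22% of all tested genes were called higher and 7.86% lower. The 5 were Hoxc13, Hoxc6, Hoxb13, Hoxd13 and Hoxa7, and 3 of them are the group 13 genes of their clusters. Hoxa was represented only by Hoxa7, whose call was lost under several alternatives given below. The filter selected Hoxc6 partly for its EpiLC KO reads. The 5 of 19 are therefore a description and not a comparison with the share of all genes.

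Hoxc13 stood at 2.66, 1.4 and 2.51 CPM in EpiLC KO, against 0.564, 1.2 and 0.499 CPM in EpiLC WT. All EpiLC KO libraries were above all EpiLC WT libraries, of which replicate 2, the library with the highest naive markers, was the nearest. The log2 fold change was 1.57 ± 0.317 (SE, n = 3 per group, adjusted p = 0.00687). Hoxb13 stood at 0.528, 0.581 and 0.451 CPM in EpiLC KO, against 0.161, 0.187 and 0.0998 CPM in EpiLC WT, with no overlap and a log2 fold change of 1.78 ± 0.396 (adjusted p = 0.011). Hoxd13 stood at 2.41, 1.69 and 3.01 CPM in EpiLC KO, against 1.13, 0.523 and 0.565 CPM in EpiLC WT. These did not overlap either, and its log2 fold change was 1.66 ± 0.379 (adjusted p = 0.013). Hoxd13 was the highest member per kilobase in EpiLC KO, at 0.955 CPM per kb, just above Hoxc13 at 0.89. The fourth group 13 gene, Hoxa13, known from limb and hindgut, had 3, 1 and 2 reads in EpiLC KO and 1, 1 and 0 in EpiLC WT and was not tested.

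**Figure D4:**
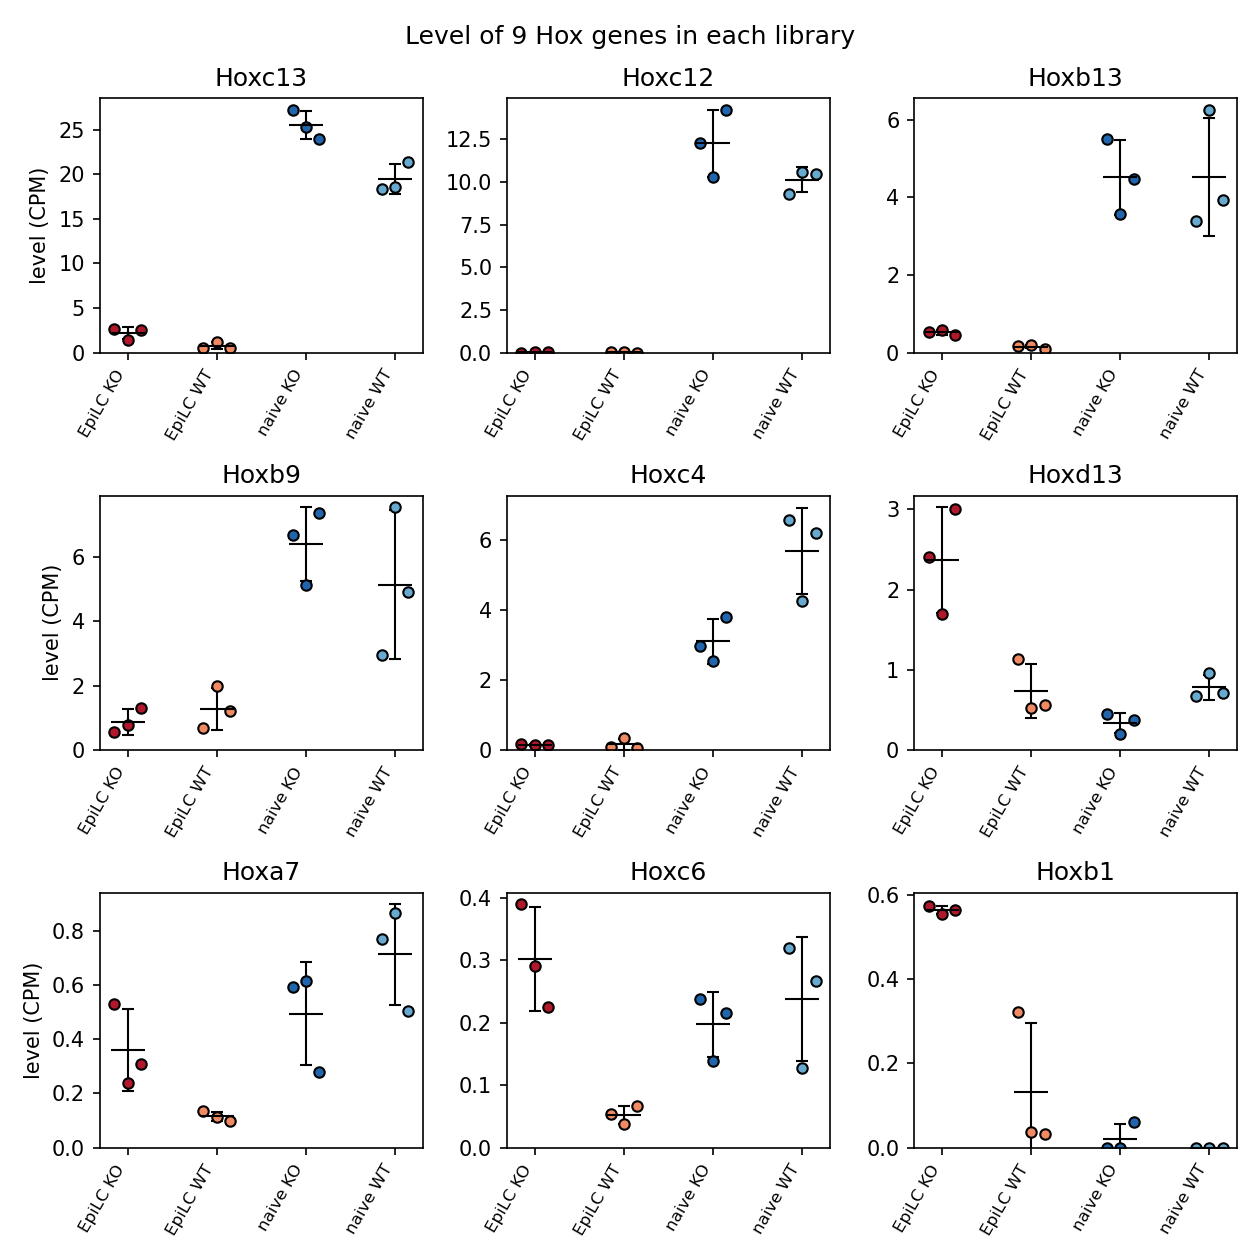
Level (CPM) of 9 Hox genes in each library, with 1 point per library, a bar for the group mean and error bars for the SD (n = 3); each panel has its own axis from 0. Hoxc13, Hoxb13, Hoxd13, Hoxa7 and Hoxc6 have EpiLC KO points above all EpiLC WT points, whereas Hoxb9 and Hoxc4 overlap between those groups.

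Hoxc6 stood at 0.39, 0.291 and 0.225 CPM in EpiLC KO, against 0.0537, 0.0374 and 0.0665 CPM in EpiLC WT, which is 8 to 17 reads against 1 or 2. Its log2 fold change was 2.44 ± 0.534 (adjusted p = 0.0102), the highest of the 5. It reached the low-count filter in 2 EpiLC KO libraries, 1 naive WT library and 0 EpiLC WT libraries. The filter thus selected Hoxc6 partly for its EpiLC KO reads. With only the EpiLC libraries fitted it was under the filter and had no test. Hoxa7 stood at 0.528, 0.238 and 0.31 CPM in EpiLC KO, against 0.134, 0.112 and 0.0998 CPM in EpiLC WT. The groups did not overlap and the log2 fold change was 1.61 ± 0.499 (adjusted p = 0.048), but this call was near the threshold and was lost in 10 of the 12 fits that left out 1 library (adjusted p 0.0353 to 0.195). The Hoxa7 call was also lost by the DESeq2 Wald test (adjusted p = 0.0636) and by edgeR with no filter (adjusted p = 0.0748). The Hoxd13 call was lost without EpiLC WT replicate 3 (log2 1.49, adjusted p = 0.0531).

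Several low members pointed the same way without passing. Hoxb1 had 25, 21 and 20 reads in EpiLC KO and 12, 1 and 1 in EpiLC WT (log2 1.96 ± 0.718, adjusted p = 0.093), and it passed without EpiLC WT replicate 1 (log2 3.87, adjusted p = 0.0223). Hoxb7 had 13, 16 and 14 reads in EpiLC KO and 8, 2 and 3 in EpiLC WT (log2 1.43 ± 0.594, adjusted p = 0.126). The posterior Hoxd genes next to Hoxd13 were below the filter. Hoxd12 had 2, 10 and 14 reads in EpiLC KO and 2, 0 and 2 in EpiLC WT. Hoxd11 had 9, 15 and 14 reads in EpiLC KO and 1, 2 and 2 in EpiLC WT. Hoxd10 had 3, 5 and 8 reads in EpiLC KO and 0, 1 and 0 in EpiLC WT, a ratio of 12.9 (95% counting interval 2 to 540). With no filter on low counts, 1 of the 20 members below it, Hoxd11, was called higher in EpiLC KO (log2 2.52 ± 0.777, adjusted p = 0.0245), where 4.84% of all genes were. Further towards the anterior end, Hoxd9 and Hoxd8 overlapped between EpiLC KO and EpiLC WT, and Hoxd1 had 17 reads in each group. The genes that did not differ by the test included Hoxc4 (log2 0.01 ± 0.499) and Hoxb9 (-0.53 ± 0.46). Leaving out 1 library in turn moved Hoxc4 between -0.35 and 1.01 and Hoxb9 between -0.95 and -0.09, and neither passed. For Hoxc4, EpiLC WT replicate 2 stood at 0.336 CPM, against 0.0806 and 0.0665 CPM in replicates 1 and 3.

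Markers of other cell types moved with this comparison. Of 10 endoderm markers 8 were tested and 7 were higher in EpiLC KO, among them Cubn, Afp, Foxa2 and Sox17. Their summed level was 27.2 to 36.8 CPM in EpiLC KO and 2.63 to 10.2 CPM in EpiLC WT, and in EpiLC WT 1 of the 10 was at 0 in all libraries. Among 12 fibroblast markers 1 of 7 tested, Pdgfra, was higher (summed level 29.5 to 45.6 CPM in EpiLC KO and 14.8 to 24.5 CPM in EpiLC WT). Pdgfrb, on the same list, pointed to a lower level in EpiLC KO without passing (log2 -0.762, adjusted p = 0.0918). It was called lower without EpiLC WT replicate 2 (adjusted p = 0.0209). Of 10 primitive streak and mesoderm markers 6 were tested and 1, Eomes, was higher (summed level 16.8 to 22.7 CPM in EpiLC KO and 7.59 to 14.1 CPM in EpiLC WT, with no overlap). The trophoblast markers went the other way in sum, at 49.7 to 64.7 CPM in EpiLC KO and 105 to 124.1 CPM in EpiLC WT. Of the 7 tested, Krt18, a keratin, was lower, at 27.5 ± 3.4 CPM in EpiLC KO and 85.1 ± 9.76 CPM in EpiLC WT (log2 -1.63 ± 0.248, adjusted p = 0.00153), and Eomes, which is on both lists, was higher. Of 3 tested neuroectoderm markers none was called. Of 11 naive markers none was called, but without EpiLC WT replicate 2 Nanog, Tbx3, Klf4 and Zfp42 were higher in EpiLC KO (log2 0.72 to 3.06, adjusted p 0.000117 to 0.0327), as was Sox2 of 6 shared pluripotency markers. None of 8 formative markers was called with or without that library. Of 4 tested markers of 2-cell-like cells 1, Usp17lb, was higher, though not without EpiLC WT replicate 2 (adjusted p = 0.0705); the summed level of their whole list was 6.09, 30.6 and 2.31 CPM in EpiLC KO and 2.04, 0.971 and 3.79 CPM in EpiLC WT. The part of these cells in the Hox result was not tested. Without EpiLC WT replicate 2, Hoxc13, Hoxc6, Hoxb13 and Hoxd13 were called higher in EpiLC KO, and Hoxa7 was not (adjusted p = 0.0857).

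In naive cells no member passed between the genotypes. Of the 19 tested, 0 were higher and 0 lower in naive KO by edgeR at an adjusted p under 0.05, where 4.27% of all tested genes were called higher and 4.95% lower. At an unadjusted p under 0.05 there were 4, all of them lower in naive KO: Hoxd9, Hoxd8, Hoxd13 and Hoxc4. Hoxd9 gave 6, 11 and 16 reads in naive KO and 21, 68 and 40 in naive WT with no overlap (log2 -1.99 ± 0.628, adjusted p = 0.0677). Hoxd8 gave 3, 1 and 12 reads in naive KO and 8, 47 and 21 in naive WT (log2 -2.25 ± 0.823, adjusted p = 0.112), and its groups overlapped. Single libraries moved the Hoxd8 value from -3.69 without naive KO replicate 3 (adjusted p = 0.0384) to -1.38 without naive WT replicate 2 (adjusted p = 0.391). Hoxd13 gave 15, 7 and 12 reads in naive KO and 21, 30 and 27 in naive WT, with no overlap (log2 -1.22 ± 0.42, adjusted p = 0.0934), and Hoxc4 had a log2 fold change of -0.87 ± 0.35 (adjusted p = 0.147). DESeq2 called 2 members lower in naive KO, Hoxd9 (adjusted p = 0.0456) and Hoxc4 (adjusted p = 0.042), where it called 7.71% of all genes lower. The same 2 were called by edgeR without EpiLC WT replicate 2 (adjusted p = 0.0321 and 0.0391), where 6.04% of all genes were lower. With no filter on low counts edgeR called Hoxd9 and Hoxd8 (adjusted p = 0.0152 for Hoxd8), where 3.21% were. Naive WT replicate 2 had the highest reads of its group for Hoxd8, Hoxd9, Hoxa9 (7, 25 and 8) and Hoxa10 (5, 30 and 23).

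**Figure D5:**
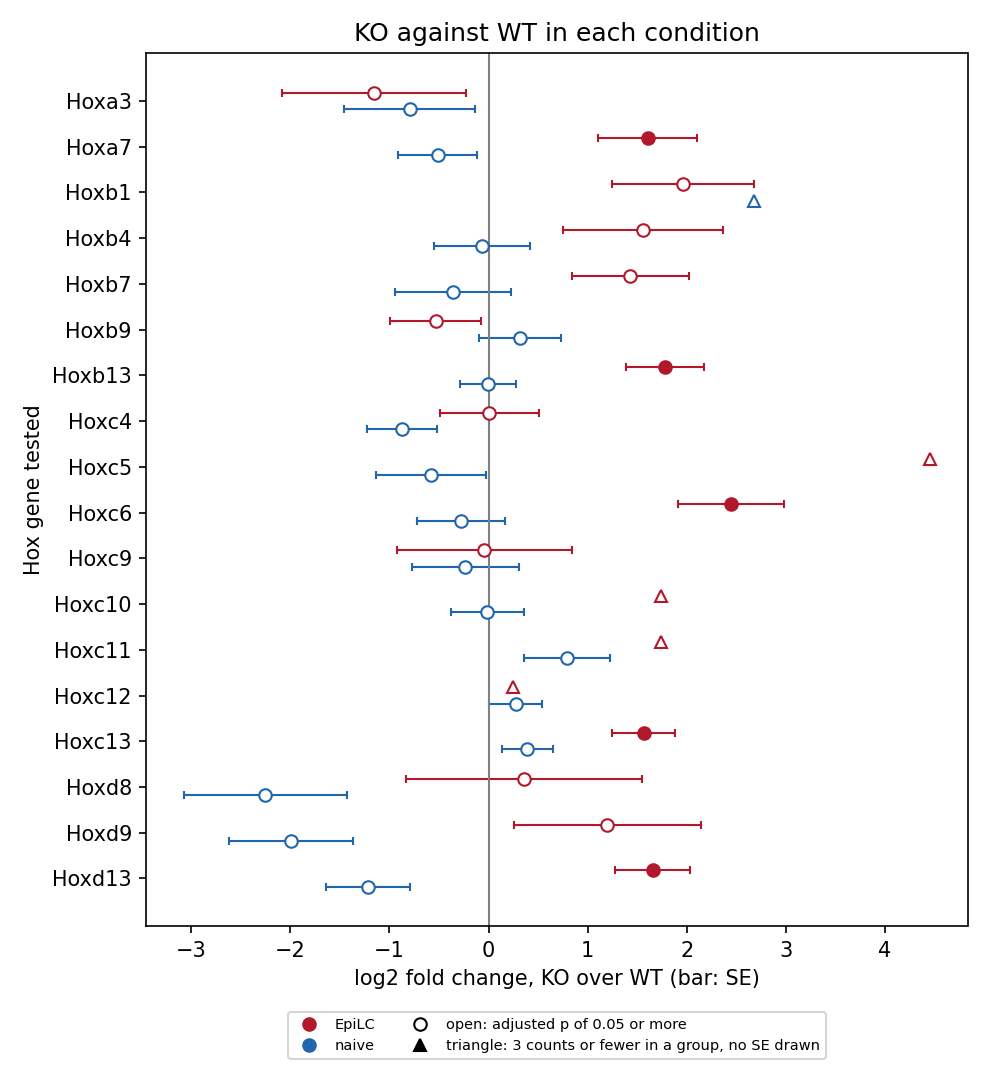
Log2 fold change of KO over WT for 18 of the 19 tested Hox genes, in EpiLCs (red) and naive cells (blue), with SE bars and filled symbols for an adjusted p under 0.05; triangles mark genes with 3 reads or fewer in a group, whose fitted fold depends on the prior count. The 5 filled symbols, all in EpiLCs, lie between 1.57 and 2.44, and no naive symbol is filled.

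The interaction asked whether the effect of the knockout differed between EpiLCs and naive cells. By edgeR 0 of the 19 members passed, where 0.381% of all tested genes were called, and 7 had an unadjusted p under 0.05. Hoxd13 came nearest, at log2 2.87 ± 0.565 (adjusted p = 0.0564): its KO libraries were all above the WT libraries in EpiLCs and all below them in naive cells. With the clone as a block, which the pairing of the replicate numbers calls for, Hoxd13 passed (log2 2.94, adjusted p = 0.0387). Without the block it did not pass in any of the 12 edgeR fits that left out 1 library (adjusted p 0.0535 to 0.146). The other 6 were Hoxa7, Hoxb13, Hoxc13, Hoxc5, Hoxc6 and Hoxd9, each with a positive value and an adjusted p of 0.131 to 0.253. The comparisons share libraries, so the EpiLC KO values enter both the genotype and the culture comparison and are not independent in them.

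A list of hindbrain regulators of Hox genes is given apart, at the end of this paragraph. Of the 86 tested partners and regulators of Hox genes on 7 other lists, 7 were higher in EpiLC KO against EpiLC WT and 5 were lower. That is 8.14% higher and 5.81% lower, near the 7.22% and 7.86% over all tested genes. Without EpiLC WT replicate 2, 6 were higher and 6 lower: Pbx2 (adjusted p = 0.0782), Aldh1a1 (0.06) and Phf19 (log2 -0.71, adjusted p = 0.176) were no longer called, while the cofactor Meis2 was higher (log2 1.92, adjusted p = 0.000501) and Stra6 and Kmt2b were lower. The 9 TALE homeodomain cofactors (Pbx, Meis and Pknox) were all tested; in EpiLC KO against EpiLC WT 1 was higher, Pbx2 at 72.1 ± 15 CPM against 44.9 ± 2.96 CPM (log2 0.69 ± 0.201, adjusted p = 0.0383), and the median of the 9 was 0.12, against 0 over all genes. Of the Cdx and ParaHox genes 1 of 4 tested was higher, Gsx1, at 3.46 ± 0.452 CPM against 0.723 ± 0.323 CPM (log2 2.26 ± 0.434, adjusted p = 0.00536; list median 1.29). Cdx1, a direct activator of Hox genes, fell with the culture change and averaged 0.18 ± 0.123 CPM in EpiLC KO against 32.2 ± 14.2 CPM in naive KO, and 0.144 ± 0.0393 CPM in EpiLC WT against 42 ± 8.92 CPM in naive WT. Of 13 tested PRC2 genes 0 were higher and 2 lower in EpiLC KO, the methyltransferase Ezh1 and the accessory gene Phf19 (list median -0.15), and Phf19 stood at 1.81, 1.9 and 2.42 CPM in EpiLC KO against 2.69, 13 and 4.02 CPM in EpiLC WT. Of 21 PRC1 genes 3 were higher, Phc2, Bmi1 and Rnf2, and 1 lower, Phc1 (list median 0.00). Of 12 MLL genes 1 was lower, Wdr5, at 255 ± 14.9 CPM in EpiLC KO against 351 ± 4.49 CPM in EpiLC WT and at 444 ± 38.2 CPM in naive KO against 736 ± 35.5 CPM in naive WT (list median 0.02 in EpiLCs and -0.06 in naive cells). Of 16 tested retinoic acid genes 1 was higher in EpiLC KO, the synthesis enzyme Aldh1a1, and 1 lower, the binding protein Crabp1 (list median -0.05); in naive KO 3 were lower, Rxra and Crabp1 among them (list median -0.36). Of 11 tested posterior axis genes 1 was higher in EpiLC KO, Wnt5a, at 2.32 ± 0.719 CPM against 0.458 ± 0.281 CPM (list median 0.30). In naive KO 3 of the 11 were higher and 0 lower (list median 0.74). Over the 86 genes, 3.49% were higher and 6.98% lower in naive KO, against 4.27% and 4.95% of all tested genes. Of 4 tested hindbrain regulators 1 was higher and 0 lower in EpiLC KO. For the interaction 1 of these 4 was called, and 0 of the 86. Without EpiLC WT replicate 2, 1 of the 86 was called for the interaction by edgeR, Meis2 (log2 1.49, adjusted p = 0.0476). That is 1.16%, where 0.503% of all tested genes were called higher and 0.286% lower. The whole hindbrain list summed to 4.17 to 6.66 CPM in EpiLC KO and 1.67 to 1.9 CPM in EpiLC WT.

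The genes in and around the clusters gave a local reference. The annotation places 46 other genes inside the clusters, of which 5 were tested. Gm53, a non-coding RNA inside the Hoxb cluster, averaged 14.4 ± 2.83 CPM in EpiLC KO and 21.5 ± 5.71 CPM in EpiLC WT, and was lower in EpiLC KO (log2 -0.58 ± 0.179, adjusted p = 0.0473), though not without EpiLC WT replicate 2 (log2 -0.35, adjusted p = 0.134). In naive cells it averaged 86.7 ± 8.02 CPM in KO and 72.9 ± 2.75 CPM in WT, above the sum of all 39 Hox genes in CPM. The annotated gene Mir196a-1 fell in EpiLCs in both genotypes, by 2.79 ± 0.347 in KO and by 1.72 ± 0.335 in WT (log2). Of the 24 nearest tested genes outside the clusters, 1 was higher and 0 lower in EpiLC KO. That was Evx1, an even-skipped homologue 52618 bp beyond the posterior end of Hoxa, with 19, 16 and 12 reads in EpiLC KO and 4, 2 and 0 in EpiLC WT (log2 2.60 ± 0.578, adjusted p = 0.0111). In naive KO 1 of the 24 was higher, Atf7 near Hoxc (log2 0.45, adjusted p = 0.0264), and 0 were lower. Hnrnpa1 and Cbx5, highly expressed neighbours of the Hoxc cluster, had log2 fold changes of -0.005 and -0.043 between EpiLC KO and EpiLC WT.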

How the data were processed

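RNA was measured in 12 libraries, 3 in each of 4 groups. Per the file headers, the authors deposited raw read counts per gene made with featureCounts 2.0.1 on GENCODE vM25 (GRCm38), with no option for strand, multi-mapping or multi-overlap reads; the submitters' processing notes also name fastp, FastQC, STAR and DESeq2. Reads in exons shared by genes were therefore left uncounted, whatever their strand. Symbols were matched by gene ID for 55141 of 55487 genes; the unmatched took at most 0.0312% of a library. Neighbouring genes and exon overlaps came from the exon coordinates in the deposited table, and gene types from an earlier GENCODE release of the same build. The deposited exon lengths in bp served only for levels per kilobase. Counts were scaled by TMM in edgeR 4.0.16 (R 4.3.3), filtered with filterByExpr (minimum count 10, minimum total 15), and 18134 genes were fitted over all 12 libraries by the quasi-likelihood test with 8 residual degrees of freedom; p was Benjamini-Hochberg adjusted over all genes, with calls under 0.05. The standard error is the log2 fold change over the square root of F. The script was tested on simulated counts. Intervals are exact 95% and cover counting error only. A fold given as at least sets a group with 0 reads to the floor of 3 counts. It takes the reads of the other group as observed, without their counting error or the spread between libraries. Replicate numbers pair the clones across conditions: deviations from the group mean correlated at 0.145 to 0.264 for the same number within a genotype, but at -0.266 to 0.004 between KO and WT. Members were reported library by library if called, among the 6 highest, or highest of their cluster; listed genes were named by smallest adjusted p, up to 4 per list. Of the genes named by these rules, 1 member and 2 listed genes are not reported here, though counts and sums include them. The members and lists were chosen with earlier results of these data known. Alternatives were DESeq2 1.42.0 (its size factors or its Wald test), no filter, only the libraries compared, the replicate block, and each library left out. Values of listed and neighbouring genes without EpiLC WT replicate 2 were added after seeing the data.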

Additional observations from a re-analysis of the deposited data

Results flagged for a closer look

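Hoxd13 was flagged because its genotype effect ran in opposite directions in the 2 culture conditions. Its reads were 105, 64 and 107 in EpiLC KO and 42, 14 and 17 in EpiLC WT, so every KO library was above every WT library. They were 15, 7 and 12 in naive KO and 21, 30 and 27 in naive WT, so every KO library was below every WT library. The difference between the effects came to log2 2.87 ± 0.565 (SE, 3 libraries per group; adjusted p = 0.0564 by edgeR), just over the threshold, and it passed with the clone as a replicate block (2.94, adjusted p = 0.0387) and by DESeq2 (2.90, adjusted p = 0.000793). By edgeR the difference did not pass in any of the 12 fits that left out 1 library (log2 2.63 to 3.33, adjusted p 0.0535 to 0.146). The cause was not tested.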

How the results depend on the processing

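No member that was called changed direction under any alternative. In naive cells the count of Hox genes called between KO and WT was 2 by DESeq2 and 2 with no filter, against 0, and in EpiLCs it was 3 with only the libraries compared, where 7 members were tested, against 5. For the interaction it was 1 by DESeq2, 1 with the replicate block and 3 with no filter, against 0. Over all genes DESeq2 called 2516 between KO and WT in naive cells and 516 for the interaction, which had 564 calls with no filter and 228 with the replicate block, against 69. Leaving out 1 library in turn gave 0 to 2 Hox genes between KO and WT in naive cells, 3 to 6 in EpiLCs and 0 for the interaction. Over all genes it gave 678 to 2164 in naive cells, 1375 to 3117 in EpiLCs and 3 to 149 for the interaction. The Hox count in EpiLCs was 3 without EpiLC WT replicate 3. DESeq2 size factors changed no call of a member. With only the libraries compared, 12 members were called lower in EpiLC WT against naive WT, where the main fit called 15. Hoxc5, Hoxc6, Hoxd8 and Hoxb1 were under the filter in that fit and had no test. Hoxc5 and Hoxd8 reached the cutoff in 2 naive WT libraries, Hoxc6 in 1 naive WT library and Hoxb1 in 1 EpiLC WT library, where 3 were needed. The replicate block changed the calls of Hoxd13 (interaction) and Hoxa3 (EpiLC against naive in KO) and of no other member. Apart from the members left out by the filter, the cause of these changes was not tested. Depth limits the members below the filter: 20 of the 39 had too few reads, and a count of 0 in a library allows up to 3 reads.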

Other observations

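With no filter on low counts, 36121 genes entered the fit. Of the 20 members left out before, 4 were called higher and 0 lower in EpiLC KO against naive KO, where 15.4% of all genes were higher and 15.3% lower, and 1 higher and 3 lower in EpiLC WT against naive WT, where 13.9% were higher and 13.5% lower. Hoxd12, Hoxd11 and Hoxd10, the genes that follow Hoxd13 along its cluster, were higher in EpiLC KO than in naive KO. Hoxd12 had 26 reads in EpiLC KO (2, 10 and 14 by library) against 0 in naive KO, and Hoxd10 had 16 (3, 5 and 8) against 0. Counted against 3 reads over the naive KO group, these were at least 7.57-fold and at least 4.66-fold higher. Hoxd11 rose by 2.94 ± 0.801 on the log2 scale (edgeR adjusted p = 0.00234). Hoxd1, at the opposite end of the cluster, had 17 reads in EpiLC KO against 1 in naive KO and 17 in EpiLC WT against 2 in naive WT, and was called higher in both genotypes (adjusted p = 0.0137 in KO and 0.0189 in WT). Hoxa9, Hoxa10 and Hoxc8 were called lower in EpiLC WT than in naive WT; Hoxa10 had 2 reads in EpiLC WT against 58 in naive WT. These genes are named because they were called, and were chosen after their values were seen.

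Among the regulators, the retinoic acid receptor gene Rarg averaged 253 ± 37.1 CPM in EpiLC KO against 29.2 ± 3.52 CPM in naive KO, and 275 ± 28.8 CPM in EpiLC WT against 27 ± 10.3 CPM in naive WT. Of the 16 tested retinoic acid genes, 10 rose and 3 fell in KO EpiLCs, and 7 rose and 3 fell in WT EpiLCs (8 and 3 without EpiLC WT replicate 2). The PRC2 core genes Suz12 and Eed fell in both genotypes. Suz12 averaged 181 ± 35.5 CPM in EpiLC KO against 426 ± 66.1 CPM in naive KO, and 201 ± 97.7 CPM in EpiLC WT (136, 313 and 154 CPM) against 510 ± 37.4 CPM in naive WT. Of the 13 tested PRC2 genes, 2 rose and 7 fell in KO EpiLCs, and 5 rose and 7 fell in WT EpiLCs (3 and 6 without EpiLC WT replicate 2). Over all tested genes 27.1% rose and 28.1% fell in KO EpiLCs, and 26.4% rose and 26.3% fell in WT EpiLCs.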
